A study of Mus musculus with 12 samples.

Results

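The genes described here are 9 genes of the Nodal and BMP signaling pathways in mouse embryonic stem (ES) cells: Nodal, Tdgf1 and Lefty2 of the Nodal arm, Bmp4, Id1, Id2 and Id3 of the BMP arm, and Smad7 and Skil, which restrain SMAD signaling in both. They were chosen as a list of names, and their accessible regions are the rows of a merged ATAC-seq list that overlap a gene body or the 50 kb to either side of it. By this rule, 181 of the 170548 merged regions belonged to the 9 windows. ATAC-seq marks open chromatin by the insertion of sequencing adapters with a transposase. The libraries came from ZHBTc4 cells, in which both copies of Pou5f1 (OCT4) are inactivated and OCT4 comes from a transgene that doxycycline (dox) shuts off, and from 2TS22C cells, in which Sox2 is replaced in the same way. The 12 libraries form 6 groups of 2: ZHBTc4 cells left untreated or given dox for 24 hr, 2TS22C cells left untreated or given dox for 26 hr, and 2TS22C cells left untreated or given dox for 40 hr, with dox at 1 µg/ml. All groups therefore carry a dox-responsive transgene, and all were grown in serum with LIF and the inhibitors CHIR99021 at 3 µM and PD184352 at 0.8 µM.

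Nodal is a secreted ligand of the TGF-β family that acts through activin receptors together with the co-receptor TDGF1 (also called Cripto). The receptors phosphorylate SMAD2 and SMAD3, which enter the nucleus with SMAD4 and bind DNA beside partners such as FOXH1. LEFTY proteins are secreted antagonists of Nodal and are themselves Nodal targets, and Nodal also feeds back on its own gene. BMP4 acts through other receptors on SMAD1, SMAD5 and SMAD9, whose best-known targets are the Id genes. ID proteins bind basic helix-loop-helix factors and keep them off DNA, and in mouse ES cells they are known as the link by which BMP signaling, together with LIF, holds back differentiation. SMAD7 blocks the receptors of both arms, and SKIL (also called SnoN) is a corepressor that binds SMAD complexes.

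The list gives the start and end of each region and nothing else. It pools the peaks of all 6 groups, so no region has a height, a read number or a value in a sample, and untreated and dox-treated cells could not be compared at any of these genes. The paper also used published ATAC-seq data of ZHBTc4 cells grown in serum and LIF. Whether the list holds peaks of those cells too is not stated. The depth of the libraries is unknown from the list, and there is no replicate error on any position. The list holds no expression either, so the identity of the cells was not checked. All values below are therefore descriptions of where chromatin was called open in at least 1 condition. Each window also holds parts of other genes, so that a region in the window of a gene is near that gene and is not assigned to it.

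All 9 genes had a region within 1 kb of an annotated transcription start site (TSS), where 74.7% of the 21938 protein-coding genes had one, and all 9 had a region over a TSS, against 68.9% of protein-coding genes. Smad7, the inhibitory SMAD, had by far the most regions in its window, 36. Tdgf1 had 24, Lefty2 22, Nodal 21, Id1 21 and Bmp4 19, while Skil and Id3 had 13 each and Id2 had 12. Of the 181 regions, 142 (78.5%, 95% Wilson interval 71.9 to 83.8%) were distal, meaning that their center lay more than 1 kb from every annotated TSS. The share over the whole list was 82.7%. Close to the starts the order was another one: within 10 kb of the outermost start, Id1 had 8 regions, Nodal, Tdgf1 and Bmp4 6 each, Smad7 and Id3 5 each, and Lefty2, Skil and Id2 3 each.

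**Figure D1:**
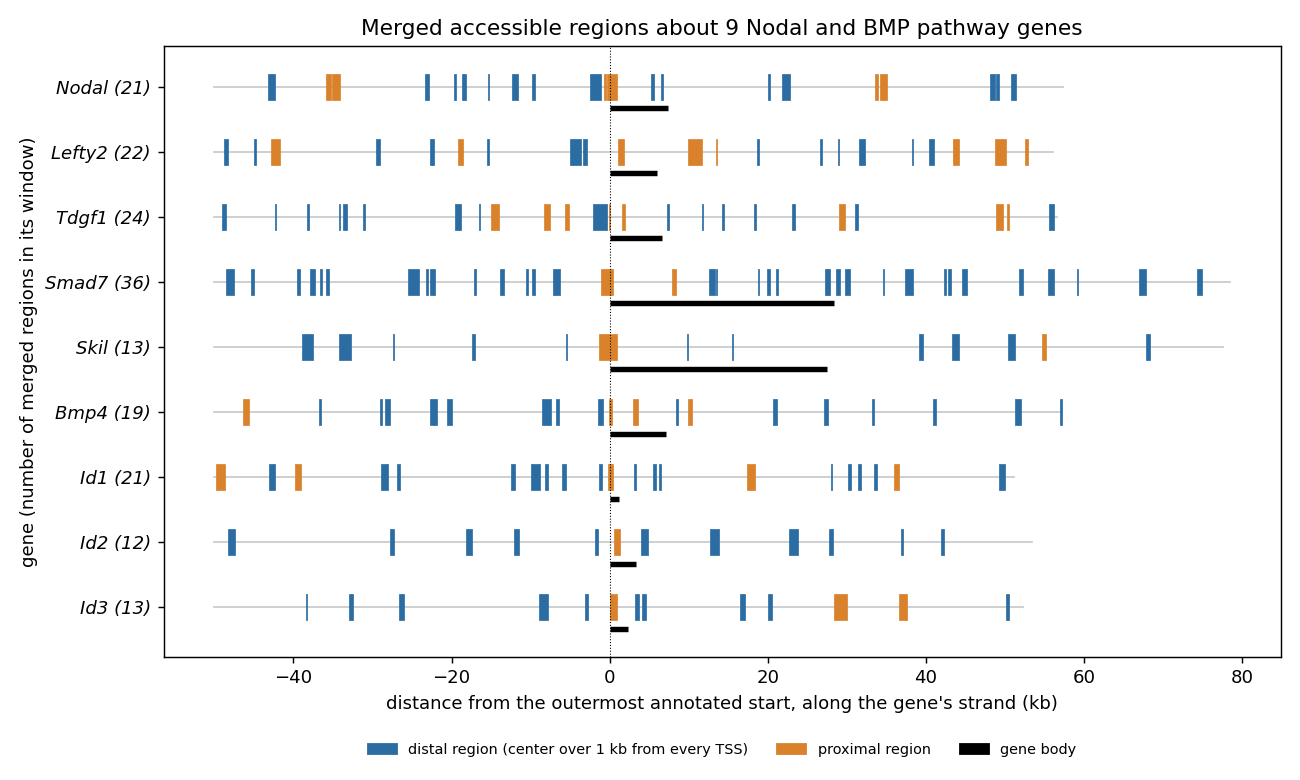
Each row is 1 gene, with its merged accessible regions drawn to scale by their distance in kb from the gene's outermost annotated start along its own strand (blue, distal, orange, proximal) and the gene body as a black bar. Smad7 has 36 regions spread over its whole window, and Skil and Id2 have 13 and 12.

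Because windows grow with the gene body, the genes were also compared as regions per 100 kb of window. The median protein-coding gene had 10.2 regions per 100 kb, with quartiles of 5.70 and 15.1, and 8 of the 9 genes lay above that median. Smad7 had 28.0 regions per 100 kb, which only 55 of 21938 protein-coding genes exceeded, and for distal regions alone only 24 genes exceeded it. Tdgf1 followed at 22.5, Id1 and Lefty2 at 20.8 each, Nodal at 19.6 and Bmp4 at 17.7, at percentiles between 85.9 and 97.3 of protein-coding genes. The remaining genes did not stand apart: Id3 had 12.7 regions per 100 kb (percentile 63.4), Id2 11.6 (percentile 57.4) and Skil 10.2 (percentile 49.9). Neighboring genes share regions in this count, so the percentiles are not those of independent windows. With narrower and wider flanks the order moved for some genes. Bmp4 stood at percentile 91.5 with 20 kb to either side and at 50.1 with 100 kb, and Id2 went from 75.8 to 33.5, whereas Lefty2 went the other way, from 81.0 to 98.0. Smad7 stayed at 99.5 or above at each of the 3 flanks.

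**Figure D2:**
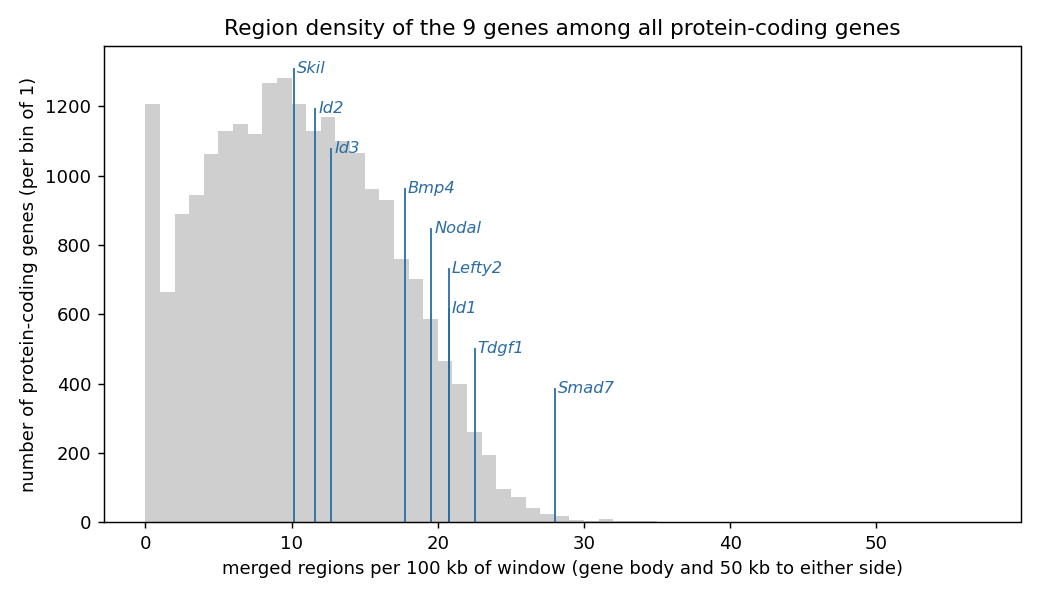
The grey bars count protein-coding genes by the number of merged regions per 100 kb of window (gene body and 50 kb to either side), in bins of 1, and the blue lines mark the 9 genes. Smad7 lies in the far right tail at 28.0, and Skil lies near the middle of the distribution at 10.2.

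Nodal is encoded on the plus strand at chr10:61417972-61425338 of GRCm38 (mm10), the build of all coordinates given here. A 1259 bp region at chr10:61417604-61418862 covered its TSS, all of exon 1 and part of intron 1. Shorter regions lay over coding sequence, with 473 bp inside exon 2 and 193 bp over the end of the coding sequence and the start of the UTR in exon 3. Next to the promoter, at chr10:61415518-61416830, lay the widest distal region of the window, 1313 bp wide and centered 1.80 kb upstream, and a 199 bp region stood between the pair. Of the 21 regions, 11 were centered upstream of the start and 10 downstream, and 8 were nearest to the TSS of Nodal itself. The other coding genes with a TSS in the window are Pald1 and Eif4ebp2. The promoter of Nodal in RefSeq (250 bases before to 50 after the start, chr10:61417722-61418021, plus strand) was open over all of its 300 bases, and none of the elements searched for was found in it. Each of these elements was found in at most 11.9% of 32851 RefSeq promoters, apart from the OCT4::SOX2 composite, which was not counted there. The absence of any single element is therefore common, here and in the promoters of Tdgf1, Bmp4 and Id3 below. The share of promoters that hold none of the elements was not counted.
Nodal promoter: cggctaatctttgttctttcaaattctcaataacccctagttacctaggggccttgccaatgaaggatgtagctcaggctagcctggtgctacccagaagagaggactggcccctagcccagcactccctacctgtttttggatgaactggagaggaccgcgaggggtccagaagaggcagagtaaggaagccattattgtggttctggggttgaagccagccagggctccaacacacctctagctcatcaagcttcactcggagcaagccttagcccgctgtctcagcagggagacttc

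Tdgf1, the Nodal co-receptor, lies on the minus strand at chr9:110939603-110946158. Its TSS was covered by a region of only 152 bp, at chr9:110946058-110946209, which reached over part of exon 1. Directly upstream, at chr9:110946436-110948330, lay a region of 1895 bp centered 1.23 kb from the start, the widest distal region in any of the 9 windows. It reached from -2.172 to -0.278 kb, so it is distal by its center and would be proximal by its nearest edge. Another region over the gene body, 317 bp wide, covered 8 coding bases of exon 2 and part of intron 1. In the RefSeq promoter (chr9:110946109-110946408, minus strand) 101 of 300 bases lay in a region, and none of the elements searched for was found. Regions under 200 bp were most frequent at Tdgf1 among the 9 genes, where 9 of 24 were that narrow. Over the whole list, 19.15% of regions were narrower than 199 bp.
Tdgf1 promoter: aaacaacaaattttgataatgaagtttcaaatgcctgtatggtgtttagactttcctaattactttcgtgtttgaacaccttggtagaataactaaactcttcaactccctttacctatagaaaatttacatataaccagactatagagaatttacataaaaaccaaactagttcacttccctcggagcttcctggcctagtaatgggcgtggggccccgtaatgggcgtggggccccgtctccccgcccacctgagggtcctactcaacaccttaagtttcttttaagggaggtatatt

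Lefty2, the Nodal antagonist, lies on the plus strand at chr1:180893108-180899103. No region covered its outermost annotated start. The region over the gene, 849 bp at chr1:180894097-180894945, covered an internal TSS at 180894458, all of exons 2 and 3 and 493 coding bases. Its neighbor Lefty1, a second Nodal antagonist whose start lies 41.9 kb downstream, showed the same layout: the outermost start was not covered, and a region centered 1.88 kb into the gene covered an internal TSS. Of the 22 regions in the Lefty2 window, 14 were also in the window of Lefty1, and 8 lay between the gene bodies. Other coding genes with a TSS there include Sde2 and Tmem63a.

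Upstream of Lefty2, at chr1:180888111-180889501, lay a region of 1391 bp centered 4.30 kb from the start, the widest distal region of the window. It held a pair of FOXH1 elements (TGTGNATT, searched on both strands), a match to the OCT4::SOX2 composite with 2 mismatches and a palindromic SMAD element (GTCTAGAC). A region between Lefty2 and Lefty1, at chr1:180924690-180925402, 713 bp wide and centered 9.98 kb upstream of the Lefty1 start, held a second pair of FOXH1 elements. These were the only 2 of the 181 regions with more than 1 FOXH1 element, a share of 1.10%, against 0.412% of all regions (703 of 170548). The pair upstream of Lefty2 is spaced 83 bp from start to start and the pair upstream of Lefty1 63 bp. The stretches are shown because they carry both pairs, and the choice was made after the matches were seen. Each is printed on the strand on which the FOXH1 elements read TGTGNATT, which is the minus strand for the first and the plus strand for the second, with capitals for the FOXH1 elements and for the composite match.
Lefty2 upstream, chr1:180888806-180889003: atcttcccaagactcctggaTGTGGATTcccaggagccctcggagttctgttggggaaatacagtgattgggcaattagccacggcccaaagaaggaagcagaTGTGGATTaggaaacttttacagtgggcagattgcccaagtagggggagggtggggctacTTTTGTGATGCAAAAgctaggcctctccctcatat
Lefty1 upstream, chr1:180924794-180924904: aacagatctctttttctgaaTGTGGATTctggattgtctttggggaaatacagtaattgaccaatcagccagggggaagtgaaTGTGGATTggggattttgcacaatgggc
Between the FOXH1 elements, both stretches contain the run ttggggaaatacagt, which is the longest run that they share on these strands, 15 bases. It starts after base 50 of the first stretch and after base 39 of the second. Both genes are read from the plus strand, so the paired elements face opposite ways relative to their genes. The palindromic SMAD element of the same Lefty2 region stood at chr1:180889319-180889326, with 20 bases to either side shown here in lower case.
Lefty2 SMAD element, chr1:180889299-180889346, plus strand: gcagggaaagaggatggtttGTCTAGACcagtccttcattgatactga

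The OCT4::SOX2 composite joins a SOX element to an octamer, here CNTTGT, 1 base and ATGCAAAT, with at most 2 mismatches over the 13 letters compared. It was found in 4 of the 181 regions (2.21%, 95% Wilson interval 0.863 to 5.54%), near the 2.4% of all merged regions. The Lefty genes had 2 of these regions. The other one, at chr1:180933441-180934091, 651 bp wide and 1.26 kb upstream of the Lefty1 start, held 2 matches in opposite directions. Nodal had a region with a match at chr10:61382128-61382749, 35.5 kb upstream and inside an intron of Pald1. Skil had one in a 193 bp region at chr3:31089473-31089665, 5.49 kb upstream. None of the windows of Tdgf1, Smad7, Bmp4, Id1, Id2 or Id3 had a match at this limit, and at 1 mismatch no region of the 9 genes had one. The matches are printed with 20 bases to either side, in the direction of the match, with the 15 bases of the match in capitals. Mismatches, counted from the first base of the match, stood at positions 1 and 3 in the plus-strand match near Lefty1, at 13 and 15 in the minus-strand match there and at 8 and 11 in the Nodal match, while both the Lefty2 upstream match and the Skil match had theirs at positions 1 and 15.
Lefty1 upstream, chr1:180933849-180933903, minus strand: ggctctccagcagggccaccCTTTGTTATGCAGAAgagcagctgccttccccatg
Lefty1 upstream, chr1:180933982-180934036, plus strand: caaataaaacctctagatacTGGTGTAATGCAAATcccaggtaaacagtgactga
Nodal, chr10:61382694-61382748, minus strand: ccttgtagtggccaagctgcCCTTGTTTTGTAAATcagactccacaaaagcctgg
Skil, chr3:31089536-31089590, minus strand: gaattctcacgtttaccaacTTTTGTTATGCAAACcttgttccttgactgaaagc

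Bmp4, the ligand of the BMP arm, lies on the minus strand at chr14:46383520-46390669. A 422 bp region at chr14:46390387-46390808 covered its outermost TSS and part of exon 1. A 631 bp region at chr14:46387145-46387775 covered an internal TSS and all of exon 2, which here is UTR. The window held 15 distal regions, the widest of them 1089 bp at chr14:46398149-46399237, centered 8.02 kb upstream. None of its regions was under 200 bp, which also held for Id2. The only other coding gene with a TSS in the window is Gm15217. In the RefSeq promoter (chr14:46390620-46390919, minus strand) 189 of 300 bases were open, and none of the elements was found.
Bmp4 promoter: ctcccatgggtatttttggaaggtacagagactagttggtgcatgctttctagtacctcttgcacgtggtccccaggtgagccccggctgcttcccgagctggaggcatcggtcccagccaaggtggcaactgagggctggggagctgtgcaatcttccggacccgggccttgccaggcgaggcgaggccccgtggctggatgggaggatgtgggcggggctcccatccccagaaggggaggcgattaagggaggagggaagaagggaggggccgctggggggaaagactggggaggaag

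The Id genes are BMP targets with gene bodies of 1160 to 3342 bp, and each had a region over a TSS. At Id1 (plus strand, chr2:152736251-152737410) this was a 706 bp region at chr2:152736006-152736711 that covered 371 coding bases of exon 1. At Id2 (minus strand, chr12:25093799-25097140) a 771 bp region at chr12:25095780-25096550 covered internal TSSs and not the outermost start. At Id3 (plus strand, chr4:136143497-136145755) an 825 bp region at chr4:136143581-136144405 also missed the outermost start and covered an internal TSS and all of exon 2. Lefty2, Id2 and Id3 were the genes whose outermost start was not covered, which left 6 of 9 with a region over it, against 61.6% of protein-coding genes. The widest distal regions were 1125 bp at chr2:152726355-152727479 for Id1, 1144 bp at chr12:25083374-25084517 for Id2 and 1167 bp at chr4:136134571-136135737 for Id3. The RefSeq promoter of Id2 (chr12:25096043-25096342, minus strand) was open over all 300 bases and held the GC-rich SMAD element GGCGCC at bases 20 to 25, in capitals, an element found in 11.9% of 32851 RefSeq promoters. The RefSeq promoter of Id3 (chr4:136143572-136143871, plus strand) was open over 291 of 300 bases and held none.
Id2 promoter: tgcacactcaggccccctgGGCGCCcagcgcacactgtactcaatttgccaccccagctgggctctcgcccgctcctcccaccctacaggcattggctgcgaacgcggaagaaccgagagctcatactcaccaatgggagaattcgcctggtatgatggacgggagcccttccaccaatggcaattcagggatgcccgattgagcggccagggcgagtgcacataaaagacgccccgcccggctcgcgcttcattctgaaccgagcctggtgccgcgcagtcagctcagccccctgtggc
Id3 promoter: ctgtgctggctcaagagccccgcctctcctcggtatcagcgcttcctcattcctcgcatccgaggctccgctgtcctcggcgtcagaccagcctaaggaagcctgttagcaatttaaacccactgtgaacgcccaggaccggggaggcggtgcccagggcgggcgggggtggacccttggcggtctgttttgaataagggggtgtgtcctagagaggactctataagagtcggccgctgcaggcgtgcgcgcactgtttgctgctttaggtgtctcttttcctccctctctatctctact

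The BMP response element joins a GC-rich part, GNCGNC with G or A as its second letter, to the SMAD part GTCT after 5 bases, and was searched on both strands. It was defined from BMP target promoters, Id1 among them, so a match upstream of Id1 is not independent of the definition. Each Id gene had a pair of distal regions with this element, with 1 region upstream of the gene and 1 past its end. For Id1 the regions were centered 1.17 kb upstream and 3.25 kb downstream of the start, for Id2 1.68 kb upstream and 4.36 kb downstream, and for Id3 2.94 kb upstream and 4.32 kb downstream. The share of distal regions with the element was 6 of 142 in the 9 windows (4.23%, 95% Wilson interval 1.95 to 8.91%) and 0.169% over the whole list (239 of 141112). The 6 regions had a GC content of 54.7 to 70.6%. Among distal regions with a GC content at least as high as the lowest of these, 6 of 42 in the windows held the element (14.3%), against 0.424% over the list (92 of 21713). The cutoff was taken from the 6 regions themselves, so all 6 were kept and the share in the windows could not fall.
The arrangement was then counted over all protein-coding genes, with a limit of 5 kb from the start chosen after the matches at the Id genes were seen. Id1, Id2 and Id3 were the only 3 of 21938 protein-coding genes with a distal region holding the element both upstream and downstream of the start within 5 kb. The count stayed at these 3 genes with limits of 10 kb and 20 kb, rose to 5 genes with 50 kb and was 0 with 2 kb. It rests on the definition of distal by the region center. The region upstream of Id1 reached from -1.403 to -0.935 kb, so by its nearest edge it would be proximal and Id1 would leave the count. Of the 588 regions with the element in the list, 349 were proximal, and the arrangement was not counted with these included. In the whole windows, at least 2 distal regions with the element were found at 3 of the 9 genes, again the Id genes, and at 0.0775% of protein-coding genes (17 genes). At least 1 region of any class with the element was found at 4 of 9, the Id genes and Skil, against 6.94% of protein-coding genes. Neither ligand, nor Tdgf1, Lefty2 or Smad7, had one. Of the 6 matches at the Id genes, 5 had GGCGCC as their first part and so overlap the GC-rich SMAD element. The exception was the match upstream of Id1. The matches are printed with 20 bases to either side, in the direction of the match and with the element in capitals, since they carry this pattern.
Id1 upstream, chr2:152735186-152735240, plus strand: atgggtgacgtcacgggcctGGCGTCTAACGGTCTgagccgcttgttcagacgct
Id2 upstream, chr12:25098834-25098888, minus strand: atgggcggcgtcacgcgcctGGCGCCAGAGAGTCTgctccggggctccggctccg
Id3 upstream, chr4:136140520-136140574, plus strand: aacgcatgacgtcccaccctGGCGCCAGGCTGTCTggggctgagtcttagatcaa
Id1 downstream, chr2:152739451-152739505, plus strand: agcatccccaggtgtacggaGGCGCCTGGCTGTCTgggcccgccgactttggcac
Id2 downstream, chr12:25093024-25093078, minus strand: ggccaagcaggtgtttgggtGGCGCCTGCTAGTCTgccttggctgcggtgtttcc
Id3 downstream, chr4:136147961-136148015, plus strand: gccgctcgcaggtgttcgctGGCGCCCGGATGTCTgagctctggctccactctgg
All 6 elements read in the direction of their gene. Compared position by position, the sequences upstream of Id1 and Id2 were the most alike, with 35 of 55 bases the same and 17 of the 20 bases before the element. The downstream sequences of Id1 and Id3 shared 29 of 55 bases, with 11 of 20 before the element and 5 of 20 after it. The other pairs shared 18 to 27. All counts over 55 bases include the element, where the letters fixed by the search agree in every pair. The downstream sequences also had letters in common outside the element: CAGGTGT stood before the element in all 3 of them, with 5 bases between at Id1 and Id3 and 6 at Id2, and in none of the upstream ones. These letters were noticed in the printed sequences. Over the whole list, CAGGTGT stood within 20 bases before the element in 3 of the 588 regions that hold a BMP response element, which are these same 3 regions.

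**Figure D3:**
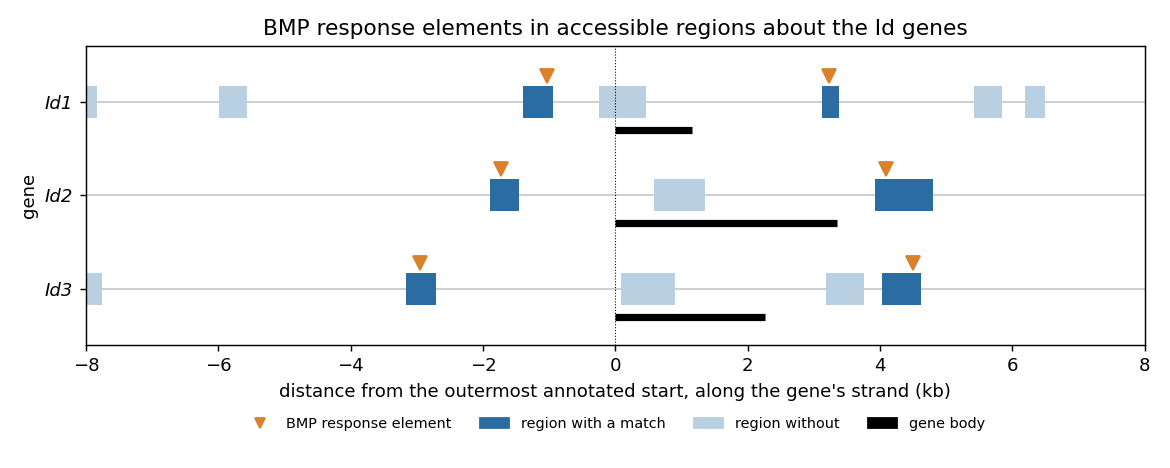
Merged accessible regions within 8 kb of the outermost annotated start of Id1, Id2 and Id3 (distance in kb along the gene's strand), with gene bodies in black, regions holding a BMP response element in dark blue and the matches as orange triangles. Each gene has 1 match upstream of its start and 1 past its end, between 1.04 kb and 4.49 kb from the start.

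Skil, the SMAD corepressor, lies on the plus strand at chr3:31095058-31122577. The region over its TSS, 2176 bp at chr3:31093754-31095929, was the widest of all 181 regions, covered all of exon 1 and had a GC content of 73.1%. Beyond it the gene body held only a pair of narrow regions inside intron 2, of 153 bp and 138 bp. The widest distal regions lay far upstream, 1490 bp at chr3:31060862-31062351 and 1456 bp at chr3:31056134-31057589, centered 33.5 and 38.2 kb from the start. The promoter region held a BMP response element 0.492 kb upstream of the start, the only promoter-proximal match in the 9 windows. Over the whole list 349 of 29436 proximal regions (1.19%) held the element, so that a single proximal match in 39 is near the background.
Skil upstream, chr3:31094539-31094593, plus strand: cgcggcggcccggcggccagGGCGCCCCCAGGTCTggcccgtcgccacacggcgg

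**Figure D4:**
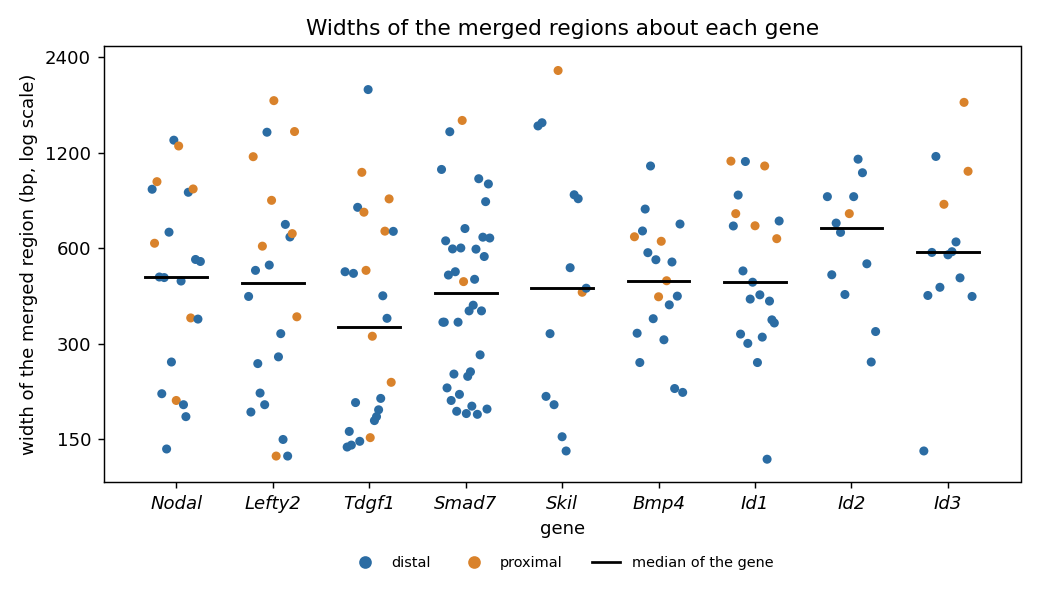
Each point is the width of 1 merged region in bp on a log scale, for each of the 9 genes, in blue for distal and orange for proximal regions, with the median of each gene as a black line. The widest points are the Skil promoter region at 2176 bp and the region upstream of Tdgf1 at 1895 bp.

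The 181 regions were wider than the list as a whole, with a median of 485 bp (quartiles 263 and 715) against 379 bp (quartiles 223 and 645). Medians by gene ran from 339 bp at Tdgf1 to 697 bp at Id2. Distal regions had a median width of 427 bp in the 9 windows and 344 bp in the list, while the proximal ones were slightly narrower than the list, at 706 and 757 bp. Most distal regions of the 9 windows were intergenic, 107 of 142 (75.4%, 95% Wilson interval 67.7 to 81.7%) against 47.0% over the list, and few were intronic, 16.9% against 46.6%. The windows reach 50 kb to either side of gene bodies of 1160 to 28407 bp, so most of each window lies outside its gene. The shares were not adjusted for this. Distal regions of the 9 windows had a median GC content of 51.9%, against 48.3% over the list.

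Smad7, the inhibitory SMAD, lies on the plus strand of chromosome 18, at chr18:75367529-75395935, and no other protein-coding gene has a TSS in its window. The region over its outermost TSS was 1515 bp wide, at chr18:75366400-75367914, and covered part of exon 1. It was the only region over a TSS of Smad7, and the non-coding gene Gm20544 has the TSS nearest to its center. Of the 5 annotated start sites, the 4 internal ones were not covered. In all, 9 regions overlapped the gene body, 5 of them inside intron 3 and a pair in the UTR of exon 4. The longest stretch without a region in the window was 9956 bp, the shortest such gap among the 9 genes, and 20 of the 36 regions were nearest to a Smad7 TSS. The widest distal region, 1396 bp at chr18:75342049-75343444 and 24.8 kb upstream, had a GC content of 65.6%. Palindromic SMAD elements were found in the promoter region of Smad7 and in an 841 bp region 55.8 kb downstream of its start. With the region upstream of Lefty2, these make 3 of 181 regions (1.66%, 95% Wilson interval 0.565 to 4.76%), against 0.494% of all merged regions.

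Of the sequence elements compared, the BMP response element had the largest ratio between the 9 windows and the list, at 7 of 181 regions (3.87%, 95% Wilson interval 1.89 to 7.77%) against 0.345%. These regions were 2 each at Id1, Id2 and Id3 and 1 at Skil. The element was defined from BMP target promoters, Id1 among them, and the Id genes are BMP targets. Its ratio is therefore not independent of the choice of genes. The ESRRB element TCAAGGTCA also had an interval above the share of the list, at 5.52% (3.03 to 9.87%) against 2.40%. It was found in 2 regions each at Smad7, Id1, Id2 and Id3 and in 1 each at Tdgf1 and Bmp4. FOXH1 elements were found in 18 of 181 regions (9.94%, 6.38 to 15.2%) against 6.93% of all merged regions, an interval that includes the share of the list. By gene, the number of regions with one ran from 0 at Id3 to 3 each at Lefty2, Id1 and Id2. The share of all protein-coding genes with such a region in the window was not counted. The octamer ATGCAAAT, which is the second part of the composite, was found in 4.97% against 3.72%, the STAT3 element TTCCNGGAA in 2.21% against 1.97%, the CTCF core in 4.42% against 3.67% and the GC-rich SMAD element in 11.6% against 9.42%. For these 4 the interval of the 9 windows also included the share of the list. Wider regions hold more letters and so more matches, and the intervals cover counting error over regions only, which are not replicates of a condition. A match is a run of letters, and binding of a factor was not measured here.

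**Figure D5:**
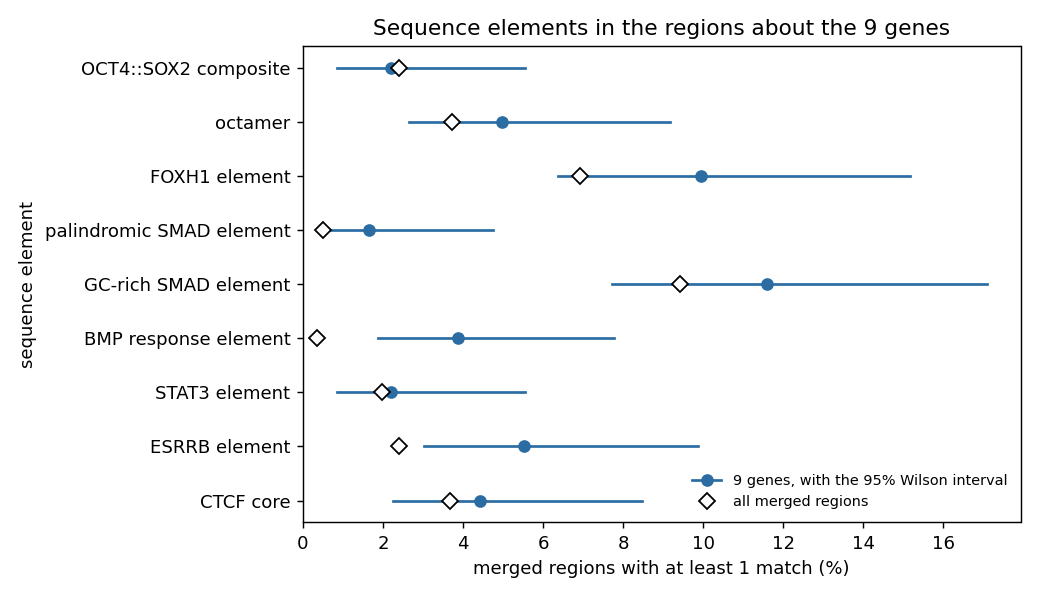
The share of merged regions in percent with at least 1 match to each element, for the 181 regions of the 9 genes (blue points, with 95% Wilson intervals) and for all 170548 regions (diamonds). The BMP response element and the ESRRB element have intervals above the share of the list, at 3.87% against 0.345% and 5.52% against 2.40%, and the interval of the palindromic SMAD element starts just above it.

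A further 42 genes of the same pathways were counted beside these 9. Of them, 40 had a region within 1 kb of a TSS, and the exceptions were the ligand gene Bmp5 and the antagonist gene Cer1. Their median was 10.5 regions per 100 kb, at percentile 51.5 of protein-coding genes, and 21 of 42 lay above the median gene. Among 10 ligand genes, Bmp7 had the most regions in its window (30) and Bmp2 the fewest (9). Among 8 receptor genes, the numbers ran from 29 at Acvr1b, which encodes a Nodal and activin receptor, to 5 at Acvr1c, and the co-receptor gene Cfc1 had 12. Among 8 genes for SMADs and their partners, Smad6, which encodes the other inhibitory SMAD, had 32 and Smad5 had 10. Among 12 genes for inhibitors and corepressors, Smurf1, a ubiquitin ligase that acts on SMADs, had 32 and the BMP antagonist Grem1 had 5. Of 3 other BMP targets, Id4 and Msx2 had 15 regions each and Msx1 had 8. These numbers are not scaled by window length. Per 100 kb, Gdf3 led the ligand genes (20.1, Bmp7 17.4) and Foxh1 the SMADs and partners (21.6, Smad6 18.9). Lefty1 led the inhibitors and corepressors (23.2, Smurf1 16.9). Acvr1b and Acvr1c remained the highest and lowest receptor genes. Among the 42 genes, 10 had at least 1 region with a BMP response element, against 6.94% of protein-coding genes. Smad4, Smad6 and Msx2 had 1 distal region with it each. Of the 42 genes, Id4 included, 0 had more than 1 such distal region, against 0.0775% of protein-coding genes.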

How the data were processed

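ATAC-seq libraries of 12 samples of ZHBTc4 and 2TS22C mouse ES cells were sequenced. The authors aligned reads to mm10 (GRCm38) with STAR 2.6.1c, removed duplicates with Picard, called peaks with MACS 2.1.1.20160309 and joined those of all ATAC-seq experiments in both lines with BEDTools. The deposited values are positions (in bp), and 0 columns hold a value of a single sample. A merged region can join peaks of different conditions. The authors also removed peaks above a width limit and those that overlapped input peaks or blacklisted regions. Whether the list was saved before or after this step is not stated. Whether peaks were called per replicate is not given in the sources used here.

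Coordinates were counted from 1. Genes came from GENCODE M21, a later release than the authors'. A region belonged to a gene when at least 1 bp lay within its body or 50 kb of it. Protein-coding genes on chromosomes 1 to 19, X and Y were treated alike. Elements were exact matches on both strands, except the composite. RefSeq promoters (GRCm38) matched 5 of the 9 genes by symbol. No match was found for Lefty2, Smad7, Skil and Id1. Other sequences were read from the RefSeq GRCm38 genome.

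The members and lists were chosen with earlier results of these data known. For each gene the text names the region over or nearest to its TSS, the widest distal region, regions over the gene body and composite matches. The BMP response element regions, the FOXH1 pairs and the CAGGTGT letters were singled out after their values were seen. No test was made. Shares have 95% Wilson intervals. Alternatives changed the flank, the widths, the TSS set, the distance measure and the mismatches. Functions were tested on simulated data. Python 3.11.15, NumPy 2.4.6, SciPy 1.17.1 and matplotlib 3.10.9 were used.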

Additional observations from a re-analysis of the deposited data

How the results depend on the processing

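The 181 regions became 96 with 20 kb to either side and 302 with 100 kb, and 178 to 181 when regions less than 100 bp apart were joined or regions were counted by their center. With regions of at least 200 bp alone, 152 remained. The distal share of 78.5% was 84.5% with 1 TSS per gene. The share of regions with a composite match, 2.21%, was 0% with at most 1 mismatch (0.262% over the list) and 12.2% with at most 3 mismatches (14.8% over the list), so that it stayed at or below that of the list in each case. The share of distal regions with a BMP response element, 4.23%, was 3.52% with GGCGCC required as the first part. It was 14.3% among the GC-rich distal regions alone, where the cutoff kept every match by construction. Both alternatives were chosen after seeing the data. In all, 16 of 22 alternatives stayed within 1.5 times a count or within the interval of a share. All 9 genes kept a region within 1 kb of a TSS in each alternative tried for it. The number above the median gene was 8 or 9 in each alternative, but at 100 kb Id2 lay below it (percentile 33.5) and Skil above it (percentile 57.9). No paired analysis was possible because values per sample are not part of the list. For the same reason no library was left out in turn, and a region called in only 1 condition cannot be told from a region called in all. The absence of a region in the list says nothing about accessibility below the peak caller's threshold, or about peaks that the authors' filters may have removed.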
